A study of Solanum tuberosum with 22 samples.

Results

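The genes described here encode 4 enzymes of amino acid metabolism in potato (Solanum tuberosum): the cysteine synthase CS-B, the branched-chain aminotransferases BCAT1 and BCAT2, and GCVT, the T protein of glycine decarboxylase, also listed as GDCST. Their spots were found by symbol or synonym in the platform annotation. The annotation listed them alone on 16 of the array's 32448 spots, and they were 4 of the 430 genes that had a spot of their own. CS-B (gene ID 102577558) had 10 spots, which were 5 cDNA clones printed in duplicate and are called A to E here. BCAT1 (102577883), BCAT2 (102577847) and GCVT (102602939) had 2 spots each, both from 1 clone.

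Cysteine synthase joins sulfide to O-acetylserine, the step by which plants fix reduced sulfur into an amino acid, and CS-B is known as the plastid isoform in potato. Branched-chain aminotransferases move the amino group between leucine, isoleucine or valine and the matching keto acid, which is the last step of making these amino acids and the first of breaking them down. Glycine decarboxylase is a mitochondrial complex that splits glycine, and with serine hydroxymethyltransferase it turns glycine into serine, most actively in photorespiring leaves. The T protein hands the methylene group of glycine to tetrahydrofolate.

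Tuber formation was followed in 2 systems on 2-colour spotted arrays, each array setting 1 RNA sample against a pool of the RNA of all stages of its own system. In vitro microtubers, which form in darkness on hormone-free medium rich in sucrose, were taken on culture days 2, 5, 10, 20 and 30, counted from visible induction, from 2 microtuber populations. In vivo samples came from growth chamber plants and comprised the stolon, the underground shoot before a tuber forms, and 5 tuber classes by size, 1-5 mm, 6-10 mm, 11-15 mm, 16-25 mm and 26-35 mm. The 2 in vivo replicates were 2 sets of 10 plants grown one after the other. Each of the 5 culture times and 6 in vivo classes thus had 2 arrays, or 10 arrays of microtubers and 12 of stolons and tubers. No genotype, cultivar or treatment difference is given for any group, and the growth protocol of the in vivo samples is worded as that of the cultures. The stolon samples alone were labelled from amplified cRNA and the rest from total RNA, and in a comparison with stolon the effect of amplification and that of tissue cannot be told apart.

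Values are read here as log2 ratios of sample to pool, where 1 unit is a 2-fold difference. They compare stages for 1 spot but not 1 gene's level with another's. The order of the ratio is not given in the sources used here, and the in vitro directions below rest on that reading. A sample cannot exceed a pool of 5 equal parts by over 2.32 log2 units. In vitro, 2 values of population 1 and 4 of population 2 did, beside 282 and 286 as far below. In vitro arrays held a value for 52.0% to 65.7% of spots and in vivo arrays for 33.1% to 48.9%, and precision is limited by there being 2 arrays a group. The in vivo plant sets were labelled with opposite dyes and correlated negatively as deposited, between -0.63 and -0.36 within a class. Set 2 was multiplied by -1 to bring them together. Which set to turn is not settled. If the ratio ran as on the in vitro arrays, the labelled dyes would have set 1 turned instead. Against that, a sample cannot exceed a pool of 6 equal parts by over 2.58 log2 units, and with set 2 turned 413 values of set 1 and 46 of set 2 did, beside 2070 and 1781 as far below. The other choice turns the sign of every in vivo value and of every difference among in vivo classes below, and leaves each such difference's size and call as they are. With set 2 turned, the storage protein genes KTI-C and API were higher in tubers than in stolon by 8.01 and 5.59, and the photosystem gene PSBR was lower by 2.30. Such storage genes helped to choose the direction and do not test it.

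In culture, CS-B transcripts declined in every clone between the first and the last days. The gene mean on the 2 arrays of each day was 0.20 ± 0.10 on day 2, 0.19 ± 0.01 on day 5, -0.26 ± 0.06 on day 10, -0.80 ± 0.02 on day 20 and -0.75 ± 0.02 on day 30 (SD, n = 2 populations). The decline thus fell between days 5 and 20, and the last 2 times lay together. All 4 late arrays (20 and 30 days) lay below all 4 early arrays (2 and 5 days) for each of the 5 clones. How many of all spots or genes separated between stages without overlap, here and in the comparisons below, was not counted. In limma 67.9% of the 408 genes tested passed late against early.

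The late minus early difference of the CS-B mean was -0.97 ± 0.07 (SE, limma adjusted p = 2.04e-06 over all genes with a spot of their own). It was -0.94 in population 1 and -0.996 in population 2. Against day 2, CS-B did not pass at day 5 (-0.02, adjusted p = 0.944), and was lower by day 10 (-0.47, adjusted p = 0.00507), with -1.001 by day 20 (adjusted p = 2.32e-05) and -0.95 by day 30 (adjusted p = 3.14e-05). From one time to the next it fell at day 10 against day 5 (-0.45, adjusted p = 0.0344) and at day 20 against day 10 (-0.54, adjusted p = 0.00908), and day 30 differed from day 20 by 0.05, which did not pass. As background, 19.6%, 48.8%, 63% and 62.5% of the 408 genes tested passed against day 2 at days 5, 10, 20 and 30, and 7.84%, 17.9% and 0.245% passed from day 5 to 10, 10 to 20 and 20 to 30, against 67.9% for late against early.

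All 10 CS-B spots passed as lower late than early. With 1 BCAT2 spot and both GCVT spots, 13 of the 16 member spots fell and 0 rose, in a comparison in which 48.5% of all 19600 tested spots passed in either direction and 24.3% passed as lower. The median change of the 16 spots was -0.73, against 0.02 over all tested spots. As 10 of the 16 are CS-B spots and duplicates of a clone are not independent, that median mostly follows CS-B. By gene, CS-B, BCAT2 and GCVT passed as lower and BCAT1 did not pass, where 67.9% of the 408 genes tested passed in either direction. Counted against day 2, 0 member spots passed at day 5, 8 at day 10, 13 at day 20 and 11 at day 30, all as lower, where 5.49%, 25.8%, 41.9% and 40.6% of all spots passed in either direction.

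**Figure D1:**
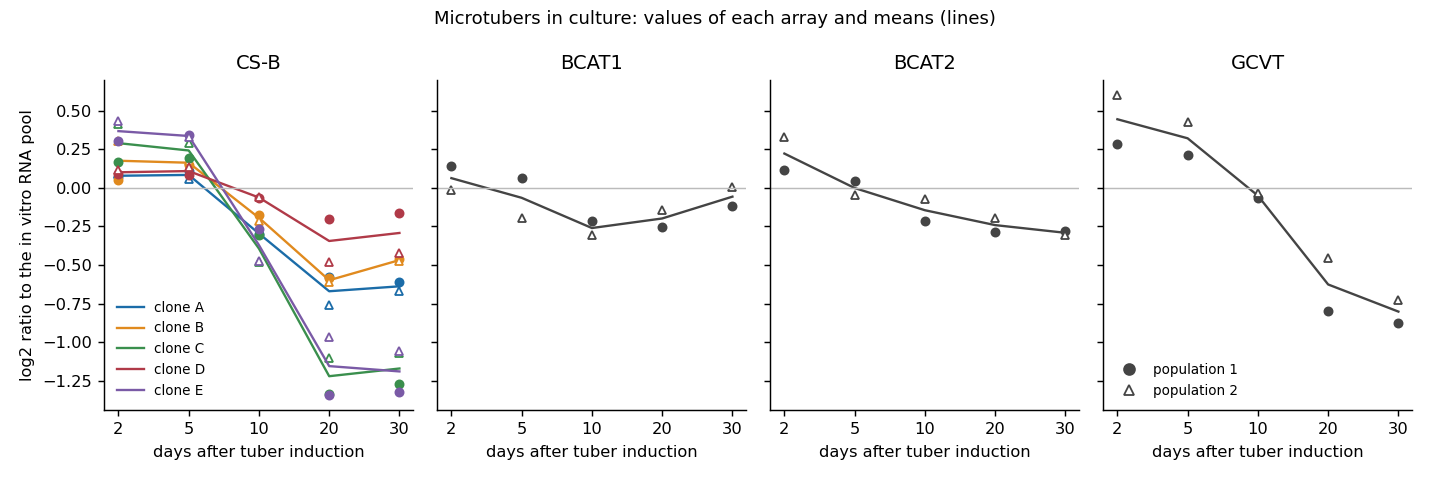
Log2 ratio to the in vitro RNA pool (vertical axis) against days after tuber induction (horizontal axis, times evenly spaced) for the 5 CS-B clones, BCAT1, BCAT2 and GCVT, each point being the mean of a clone's duplicate spots on 1 array, filled for population 1 and open for population 2, with lines through the means. CS-B clones C and E reach between -0.97 and -1.34 at 20 and 30 days while clone D stays between -0.16 and -0.48, and BCAT1 alone has late values among its early ones.

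The CS-B clones differed in how far they fell. Clone C gave -1.34 and -1.10 at 20 days and -1.27 and -1.07 at 30 days in populations 1 and 2, against 0.17 and 0.41 at 2 days and 0.20 and 0.29 at 5 days. Clone E followed it closely, with -1.34 and -0.97 at 20 days and -1.32 and -1.06 at 30 days, against 0.30 and 0.43 at 2 days and 0.35 and 0.33 at 5 days. Clone D moved least, with -0.20 and -0.48 at 20 days and -0.16 and -0.42 at 30 days, against 0.09 and 0.11 at 2 days and 0.08 and 0.13 at 5 days. Clones A and B lay between them, at -0.46 to -0.76 on the 8 late clone values and 0.05 to 0.30 on the 8 early ones.

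The duplicate spots of a clone stayed close to each other in these fits. The late minus early changes of the 2 spots were -1.50 and -1.42 for clone C, -1.47 and -1.58 for clone E, -0.72 and -0.75 for clone A, -0.67 and -0.74 for clone B, and -0.44 and -0.40 for clone D (SE 0.09 to 0.12). The steepest and the shallowest clone therefore differed by much more than duplicates did. Each of the 10 pairs of clones was compared by an exact two-sided permutation test over the 8 arrays on the difference between the 2 clones, adjusted over 20 such tests in both systems. By that exact test 8 of the 10 pairs passed (adjusted p = 0.0379, raw p = 0.0286, the smallest that 4 against 4 arrays allow), with differences in change of 0.28 to 1.10 in size, and the same sign in both populations. A with B (-0.03) and C with E (0.06) did not pass. Across the 10 arrays, which share their RNA and pool between clones, clone profiles correlated between 0.83 (D with E) and 0.996 (C with E), so the in vitro clones differed in size and not in direction. These pair tests were chosen after the values were seen. In neither system were clone pairs of other genes tested, so the count of pairs has no background. With arrays permuted only within each population, 0 pairs passed (exact adjusted p = 0.0695 for the same 8), since no p under 0.0556 can then be had.

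In stolons and tubers the same clones differed in direction. Clone C gave -0.18 in set 1 and -1.34 in set 2 in stolons, and in tubers 0.53 and 0.36 at 1-5 mm, 0.69 and 1.29 at 6-10 mm, 0.93 and 1.67 at 11-15 mm, 1.03 and 0.80 at 16-25 mm, and 0.33 and 1.03 at 26-35 mm. As means of the duplicate spots, all 10 tuber values of clone C lay above both stolon values. On spot 153560 alone, set 1 gave -0.058 at 1-5 mm and -0.135 at 26-35 mm, below the -0.028 of that set's stolon. The 0.69 at 6-10 mm in set 1 is that of spot 154404 alone. Clone D went the other way, with 0.14 and 0.48 in stolons, and in tubers -1.03 and -1.46 at 1-5 mm, -0.84 and -1.36 at 6-10 mm, -0.76 and -1.11 at 11-15 mm, -0.34 and -0.99 at 16-25 mm, and -0.56 and -0.99 at 26-35 mm. All 10 tuber values of clone D lay below both stolon values. The share of all spots that separated in this way was not counted. In limma 22.3% of the 10415 spots tested passed tubers against stolon.

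Clone E had the pattern of clone C. It gave -0.16 and -1.22 in stolons, and in tubers 0.35 and 0.23, 0.04 and 0.90, 0.38 and 1.64, 0.78 and 0.67, and 0.28 and 0.56 from the smallest to the largest class, so that each tuber value again lay above both stolons. In clones A and B the 2 plant sets stood apart in tubers, as they did for 55.3% of the 7659 spots with a value on every in vivo array. Clone A in tubers lay between -0.28 and 0.29 in set 1, against 0.10 in that set's stolon, and between -0.93 and -0.57 in set 2, against 0.21. Clone B in tubers lay between 0.64 and 1.10 in set 1, against -0.36 in stolon, and between -0.41 and -0.07 in set 2, against -0.06.

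**Figure D2:**
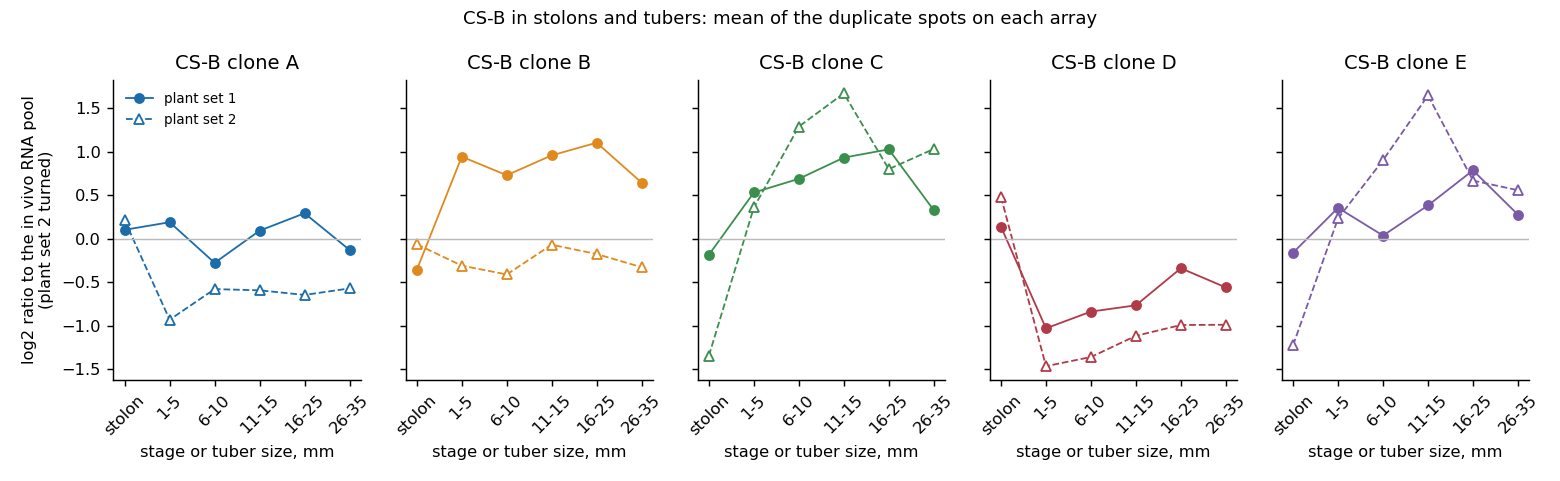
Log2 ratio to the in vivo RNA pool (vertical axis, plant set 2 turned) in stolons and the 5 tuber size classes (horizontal axis) for each CS-B clone, with filled circles and solid lines for plant set 1 and open triangles and dashed lines for set 2. As means of duplicate spots, tuber values of clones C and E lie above both stolon values and those of clone D below both. Sets 1 and 2 of clone B separate, at 0.64 to 1.10 and -0.41 to -0.07 in tubers, as the sets did for 55.3% of spots with every in vivo value.

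For tubers against stolon, 3 of the 12 member spots that could be tested passed, all of them CS-B spots, where 22.3% of all 10415 tested spots passed in either direction. Clone C spot 154404 rose (2.06 ± 0.38, SE, limma adjusted p = 0.00729), and clone D spots 155686 (-1.34 ± 0.26, adjusted p = 0.0114) and 157545 (-1.28 ± 0.31, adjusted p = 0.0248) fell. In these fits spot 155686 lacked the set 1 array of 6-10 mm and spot 157545 that of 16-25 mm. The other clone C spot, 153560, gave 1.25 ± 0.44 and did not pass (adjusted p = 0.0819), without the set 1 array of 6-10 mm, and the 2 spots of clone C differed by up to 1.18 on an array. The clone E spots gave 1.21 and 1.33 (limma adjusted p = 0.0629 and 0.0541). They passed with the plant set as a block (limma adjusted p = 0.0397 and 0.0331), which brought the members' count to 5 and the share of all spots to 39.6%. That block takes the set difference as equal in stolon and tubers. Over all spots, deviations from class means instead correlated between 0.846 and 0.933 among tuber classes and between -0.468 and -0.375 with stolon. The count rests on few arrays: it was 2 without the stolon of set 1, 0 without the stolon of set 2 and 5 without the 11-15 mm array of set 1.

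Averaging the spots hid this split. The CS-B mean differed between tubers and stolon by 0.35 ± 0.27 (limma adjusted p = 0.381, in a fit in which 18.2% of 358 genes passed), with 0.37 in set 1 and 0.33 in set 2. It ranged from 0.21 to 0.58 with 1 array left out and was 0.08 with the median over spots. Among the 134 genes annotated alone that had at least 4 tested spots, 1 had spots passing in both directions (0.746%), and that gene was CS-B. CS-B had 10 tested spots, and more spots give more room for calls in both directions. The share was not matched for the number of spots or clones, so how rare the split is cannot be read from it. Per plant set, the tubers minus stolon change was 0.88 and 2.37 for clone C, 0.53 and 2.02 for clone E and -0.84 and -1.66 for clone D, each with 1 sign in both sets. Clone A gave -0.07 and -0.87, also with 1 sign, and clone B gave 1.23 and -0.20, with opposite signs. Opposite signs occurred for 37.4% of the 7659 spots with a value on every in vivo array.

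**Figure D3:**
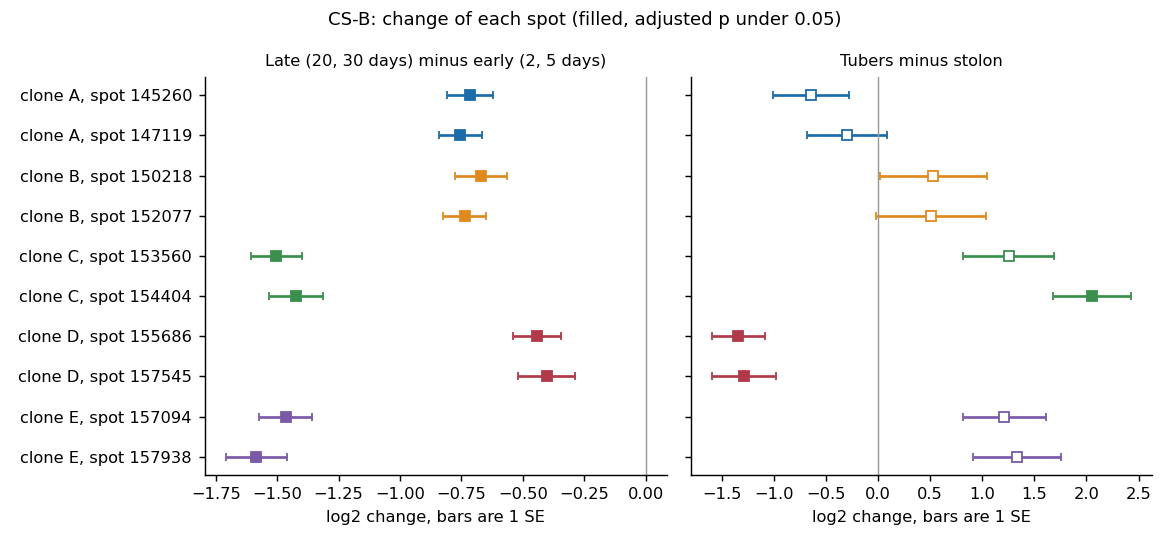
Log2 change of each CS-B spot (horizontal axis, bars are 1 SE; spots run down the page by clone) for late minus early microtubers at the left and tubers minus stolon at the right, filled where the adjusted p was under 0.05. All 10 spots lie below 0 at the left, from -0.40 to -1.58, while at the right they run from -1.34 for clone D to 2.06 for clone C.

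In the same exact permutation test over the 12 in vivo arrays, 8 of 10 clone pairs differed in their tubers minus stolon change (adjusted p = 0.0379, raw p = 0.0303, the smallest that 10 against 2 arrays allow). Clones C and D differed most, by 2.88, with 1.72 in set 1 and 4.03 in set 2. C with E, which changed in the same direction, was also among the pairs that passed, with a difference of 0.35 (0.36 in set 1 and 0.35 in set 2). B with C (-1.11, adjusted p = 0.202) and B with E (-0.76, adjusted p = 0.351) did not pass, and their difference changed sign between the plant sets. Permuted only within plant sets, 0 of the 10 passed, with the same limit of 0.0556. Across the 12 arrays the profiles of clones C and E correlated at 0.95 and those of C and D at -0.75. By correlation C and E were the pair most alike in both systems, and D was least like them in both. In 8 of the 10 pairs the difference kept 1 sign in both plant sets. Plant set and dye cannot be told apart, and whether dye or stolon amplification bears on the split was not tested. Which transcripts each clone binds was not tested.

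Within tubers no CS-B spot passed with size. Large minus small (16-25 and 26-35 mm against 1-5 and 6-10 mm), the CS-B mean differed by 0.20 ± 0.24 (limma adjusted p = 0.999, where 0.559% of genes passed), and single spots by -0.15 to 0.58. The mean ranged from 0.02 to 0.36 with 1 array left out. Of the 12 tested member spots 0 passed in limma, as did 0% of the 10415 tested, of which 757 had an unadjusted p under 0.05. Clone D had the widest difference, at 0.48 in set 1 and 0.42 in set 2. Each tuber class against stolon gave 1, 2, 2, 1 and 1 member spots from the smallest to the largest, beside 7.35%, 8.8%, 13.6%, 10.8% and 13.1% of all spots. These were spot 155686 of clone D in the 3 smallest classes, with changes of -1.55, -1.69 and -1.39, and spot 154404 of clone C in the 4 largest, higher by 1.99, 2.50, 2.14 and 1.92.

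The aminotransferases moved less in culture. BCAT2 gave 0.12 and 0.33 at 2 days, 0.04 and -0.04 at 5 days, -0.22 and -0.07 at 10 days, -0.28 and -0.20 at 20 days, and -0.28 and -0.30 at 30 days in populations 1 and 2. All 4 late values lay below all 4 early ones, and the mean fell (late minus early -0.38 ± 0.08, SE, limma adjusted p = 0.00217). Its change came to -0.36 in population 1 and -0.39 in population 2. Against day 2 BCAT2 was lower from day 10, at -0.37 (adjusted p = 0.0257), -0.46 (0.00567) at day 20 and -0.51 (0.00324) at day 30, while no step from one time to the next passed. The 2 spots were unequal: spot 143344 fell (-0.56, adjusted p = 0.00158), and spot 144188 gave -0.20 and did not pass (adjusted p = 0.236).

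BCAT1 gave 0.14 and -0.02 at 2 days, 0.06 and -0.19 at 5 days, -0.22 and -0.30 at 10 days, -0.25 and -0.15 at 20 days, and -0.12 and 0.00 at 30 days. Its lowest mean was at 10 days (-0.26 ± 0.06, SD, n = 2), and early and late values overlapped. The late minus early difference was -0.13 ± 0.09 (SE, limma adjusted p = 0.218), with -0.29 in population 1 and 0.03 in population 2, and ranged from -0.19 to -0.06 with 1 array left out. None of its 4 differences from day 2 passed, the nearest being day 10 (-0.32, adjusted p = 0.054).

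The contrast between the 2 aminotransferases was taken array by array, as BCAT1 minus BCAT2. It was 0.03 and 0.05 at 20 days and 0.16 and 0.31 at 30 days in populations 1 and 2, against 0.02 and -0.34 at 2 days and 0.02 and -0.15 at 5 days. The 4 late values (0.14 ± 0.13, SD) all lay above the 4 early ones (-0.11 ± 0.18, SD), although in population 1 by as little as 0.01. The difference of 0.25 had p = 0.0286 in an exact two-sided permutation test, the smallest 4 against 4 arrays allow, and 0.0571 after adjustment over the 2 tests made, so it did not pass. On the early arrays population 2 supplied the low values, and without its 2-day array the difference was 0.17.

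In vivo the aminotransferases were measured too rarely for the fit across spots. The BCAT1 spots had a value on 7 and 6 of the 12 arrays and the BCAT2 spots on 3 and 5, so none of these 4 spots was tested there. BCAT1 had 1 value in each stolon, -0.36 in set 1 and -0.31 in set 2. In tubers of set 1 it gave -0.74 at 1-5 mm, 0.55 at 11-15 mm, 1.06 at 16-25 mm and 0.73 at 26-35 mm, and in set 2 it gave 0.57 at 1-5 mm, 0.51 at 6-10 mm, 1.22 at 11-15 mm and 0.81 at 16-25 mm. The stolon values come from spot 148415 alone. On that spot 5 tuber arrays had a value, -0.74, 0.14, 0.55, 0.60 and 0.71, of which all but that of 1-5 mm in set 1 lay above both stolons.

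BCAT2 had few values in tubers. On the 10 tuber arrays spot 143344 had 1 value and spot 144188 had 3, while both spots had a value on both stolon arrays. The tuber arrays with a value were both of 11-15 mm, at -2.65 in set 1 and -1.07 in set 2, and that of 26-35 mm in set 1, at -2.74, against 0.39 and 0.58 in the stolons of sets 1 and 2. Each of the 3 lay below both stolons. Of all 13176 spots with a value on both stolon arrays, 7.05% had as few as 3 tuber values or fewer. Why a value is missing is not given in the sources used here, and missing values were read as neither low nor high.

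**Figure D4:**
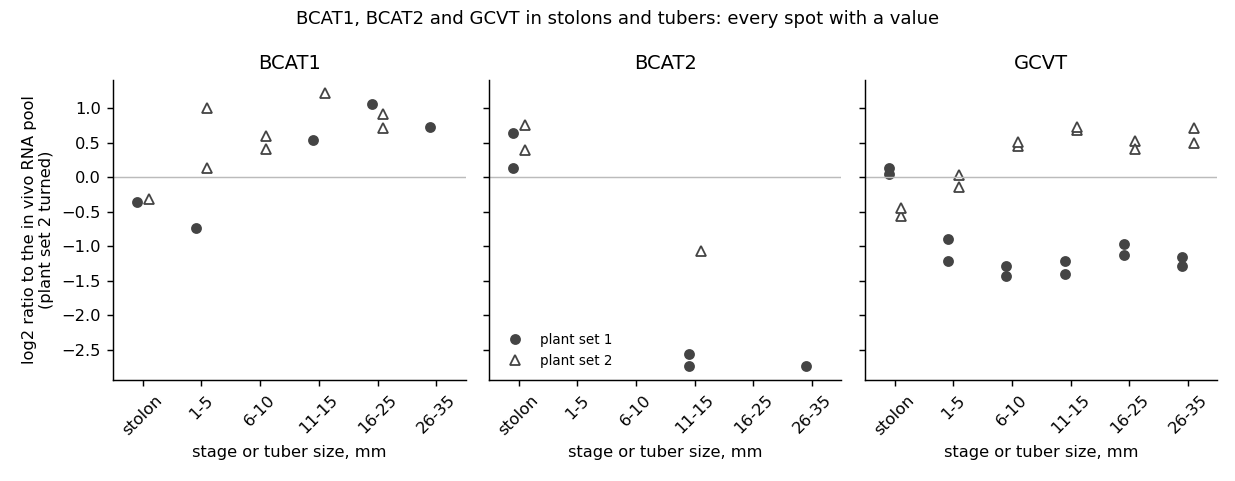
Log2 ratio to the in vivo RNA pool (vertical axis, plant set 2 turned) in stolons and the 5 tuber size classes (horizontal axis) for every spot of BCAT1, BCAT2 and GCVT that had a value, filled for plant set 1 and open for set 2. BCAT2 has points in stolons and, for tubers, only at 11-15 mm and 26-35 mm, and GCVT in tubers splits by plant set, with all set 1 values below all set 2 values.

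Both aminotransferases had a value on 3 tuber arrays and both stolon arrays. BCAT1 minus BCAT2 was 3.19 and 2.29 at 11-15 mm in sets 1 and 2 and 3.47 at 26-35 mm in set 1, against -0.75 and -0.89 in stolons. The difference of 3.80 had p = 0.2 in an exact two-sided permutation test, the smallest p that 3 against 2 arrays allow, so this design could not pass. In stolons and at 11-15 mm in set 1 the BCAT1 value is that of spot 148415, and on the other two tuber arrays that of spot 149259. With the other in vivo direction it is -3.80. In culture the gap between the 2 transcripts ran over a range of 0.65 log2 units on 10 arrays, against 4.35 on 5 arrays in vivo. Each system was set against its own pool. The in vivo range also sets amplified stolon RNA against tuber RNA that was not amplified, and mixes the 2 BCAT1 spots. The 2 ranges are therefore not like for like.

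**Figure D5:**
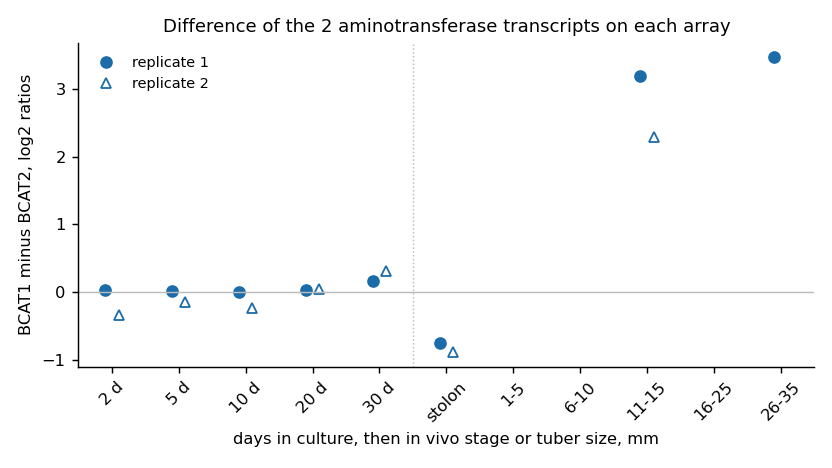
BCAT1 minus BCAT2 in log2 ratios (vertical axis) on each array where both had a value, for the 5 culture days and then the 6 in vivo classes (horizontal axis), filled for replicate 1 and open for replicate 2. In culture the points lie between -0.34 and 0.31, and in vivo the 3 tuber points lie at 2.29 to 3.47 and the stolon points at -0.75 and -0.89.

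GCVT had the largest estimated change of the 4 gene means in culture. It gave 0.29 and 0.60 at 2 days, 0.21 and 0.43 at 5 days, -0.07 and -0.04 at 10 days, -0.80 and -0.46 at 20 days, and -0.88 and -0.73 at 30 days in populations 1 and 2. Every late value lay below every early one, with the 10-day values between them. The late minus early difference was -1.10 ± 0.11 (SE, limma adjusted p = 1.35e-05), alike in the populations at -1.09 and -1.11. GCVT was lower than at day 2 from day 10 on, with -0.49 at day 10 (adjusted p = 0.0253), -1.07 at day 20 (2.27e-04) and -1.25 at day 30 (7.49e-05), and the one step between neighbouring times that passed was day 20 against day 10 (-0.58, adjusted p = 0.0317).

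In vivo the 2 plant sets gave opposite pictures of GCVT. In set 1 the tubers gave -1.05, -1.36, -1.31, -1.04 and -1.22 from the smallest to the largest, against 0.09 in stolon. In set 2 the tubers gave -0.06, 0.48, 0.71, 0.47 and 0.60, against -0.50 in stolon. The tubers minus stolon difference was thus -1.29 in set 1 and 0.94 in set 2, and the fit over both gave -0.17 ± 0.76 (SE, limma adjusted p = 0.892). Such opposed differences occurred for 37.4% of the 7659 spots with a value on every in vivo array, and 55.3% of those spots had tuber values that did not overlap between the sets, as for GCVT. The plant set is also the dye of the sample, and the 2 cannot be told apart. From small to large tubers GCVT differed by 0.20 ± 0.69 (limma adjusted p = 0.999).

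The difference between the systems was fitted over all 22 arrays. It is the late minus early change of microtubers less the large minus small change of tubers. That fit gave each spot 1 spread for both systems, while the typical spread of spots (limma prior SD) was 0.16 in vitro and 0.439 in vivo. The CS-B mean gave -1.17 ± 0.25 (limma adjusted p = 0.0116, where 8.31% of 361 genes passed), from -0.97 in culture and 0.20 in vivo. Of the 12 tested member spots 4 passed, all CS-B and all lower in culture, where 4.06% of 11181 spots passed in either direction. They were 1 spot of clone C, 1 of clone D and both of clone E. That count fell to 0 or 1 when any 1 of the 8 early and late in vitro arrays was left out, and to 1 without the set 1 array of 6-10 mm or the set 2 array of 1-5 mm or 26-35 mm, while the CS-B mean stayed between -1.33 and -0.99 and passed each time. With the other in vivo direction the CS-B mean gave -0.77 and did not pass (adjusted p = 0.0681), and 2 spots passed. GCVT gave -1.30 ± 0.76 and did not pass (adjusted p = 0.328). Days in culture and tuber size are different scales, and the 2 changes share no sample.

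A list of symbols of related amino acid and one-carbon enzymes matched 8 other genes, by symbol or synonym only. In culture 3 of the 8 were higher late than early and 2 were lower, where 67.9% of the 408 genes tested passed in either direction. METK1, an S-adenosylmethionine synthetase, was higher by 1.56, SHKA, of the shikimate pathway to aromatic amino acids, by 0.46, and pyrB by 0.22, while MS, methionine synthase, gave -0.38 and CBL -0.25. SHMT, the serine hydroxymethyltransferase that works with glycine decarboxylase, gave -0.08 ± 0.16 and did not pass (limma adjusted p = 0.682), with fewer than all arrays. In tubers against stolon 0 of the 7 tested passed in limma, where 18.2% of 358 genes did. With the plant set as a block 2 passed, METK1 (-1.20, limma adjusted p = 0.0416) and SHKA (0.70, limma adjusted p = 0.00974), where 43.3% of genes did. That block takes the set difference as equal in stolon and tubers, which the deviations from class means did not show. SHMT was not tested in vivo. CS-A, the cytosolic cysteine synthase, had no spot of its own.

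Across the 10 in vitro arrays the profile of the CS-B mean correlated with that of GCVT at 0.967, with BCAT2 at 0.864 and with BCAT1 at 0.396, and the 2 aminotransferases correlated with each other at 0.476. These arrays share 1 pool and one course of days. Among the 86 or 87 other genes compared, the profiles most like CS-B were those of RA215 (0.989) and PEST2 (0.986), most like GCVT were ADH1, an alcohol dehydrogenase (0.984), and RA215 (0.983), most like BCAT2 were PURM (0.938) and UCP (0.933), and most like BCAT1 were NDPK1, a nucleoside diphosphate kinase (0.904), and CYCD3.3, a D-type cyclin (0.786). Over the 12 in vivo arrays the CS-B mean was most like GBSS, granule-bound starch synthase (0.798), and HRBP1 (0.766), and GCVT most like NDPK1 (0.983) and the glycolytic GAPDH (0.972). The 12 arrays share 1 pool and fall into the 2 plant sets, which separate for GCVT.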

How the data were processed

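The authors deposited log2 ratios of each spot. Limma is named, without a version, in the submitters' processing notes. How background was corrected, arrays normalized and spots filtered, the genome build and the order of the ratio are steps not given in the sources used here. Array medians lay between -0.058 and 0.029, so the deposited log2 values were used as they stand, with in vivo replicate 2 multiplied by -1.

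Spots were named through the platform annotation, with 430 of 430 identifiers found in the table of SolTub_3.0 genes, whose coordinates were not used. No member was listed among the 180 spots with several genes. Testing required values on 80% or more of a fit's arrays, with 1 or more in every group. Fits used limma 3.58.1 in R 4.3.3, with Benjamini-Hochberg adjustment over all spots or all genes and a threshold of 0.05. Of 50 simulated spots with a true change of 1 log2 unit, 94% passed late against early and 8% tubers against stolon. With a true change of 2, 42% passed tubers against stolon. All but a few simulated spots were left without change. In the data 48.5% of tested spots passed late against early and 22.3% tubers against stolon. Adjustment is stricter where fewer spots change, so the simulated shares are not the recovery of the fits reported. With 2 arrays a group, an in vivo difference that did not pass is not evidence of no change. A gene mean averages the tested spots. Each system had its own fit and spread, except that the difference between systems came from 1 fit with a shared spread. Exact permutation tests used scipy 1.17.1.

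The members, lists and tests were chosen with earlier results of these data known. Likeness was Pearson's r over arrays, with the 2 closest genes named. The in vivo replicate number marks a plant set, per the labels: deviations from class means correlated between 0.846 and 0.933 among tuber classes and between -0.468 and -0.375 with stolon. In vitro it marks a population, and the correlations lay between -0.142 and 0.441.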

Additional observations from a re-analysis of the deposited data

Results flagged for a closer look

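The late minus early change of microtubers differed from the large minus small change of tubers for CS-B in the fit over all 22 arrays (limma, adjusted p under 0.05 for the difference itself). The CS-B mean gave a difference of -1.173. By spot, clone C spot 154404 gave -1.594, clone D spot 155686 gave -1.026, and clone E spots 157094 and 157938 gave -1.766 and -1.665. The mean gave -0.767 and did not pass with the other in vivo direction (limma adjusted p = 0.0681). The count of 4 spots was 0 or 1 without any 1 of the 8 early and late in vitro arrays. The GCVT mean gave -1.297 and did not pass.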

How the results depend on the processing

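The in vitro count of 13 lower member spots held within 1.5 times under each of the 6 alternatives run and was 12 to 13 with any 1 array left out, and the CS-B, BCAT2 and GCVT means stayed lower and past the threshold in all of them. For tubers against stolon the count of 3 became 6 with quantile normalization and 6 with array weights. It became 1 of 9 with spots that had every value (fewer spots tested) and 5 with the replicate block, and it changed when single arrays were left out. Quantile normalization puts the arrays of a fit on 1 distribution, which joins both systems only in the fit of the difference between them. Permuted within replicates, as a replicate block for the CS-B clone pairs, the count of 8 pairs became 0 in each system, since 36 arrangements give no p under 0.0556. The replicate block changed no call on a member's gene mean, left the in vitro count at 13, and gave 0.251 for BCAT1 minus BCAT2 in culture (adjusted exact permutation p = 0.111). That value ranged from 0.173 to 0.296 with 1 array left out. The count of 0 for large against small tubers held in every fit run, with the least limma adjusted p of a gene mean at 0.905 when 1 array was left out. For the difference between systems the count of 4 became 11 with quantile normalization, 0 with array weights and 2 with the other in vivo direction, and ranged from 0 to 5 with 1 array left out. The CS-B mean of that difference ranged from -1.331 to -0.987 and passed in each of these left-out fits, and gave -0.767 and did not pass with the other in vivo direction (limma adjusted p = 0.0681). The other in vivo direction turned tubers against stolon to -0.353 for CS-B and 0.171 for GCVT, large against small to -0.203 and -0.199, and BCAT1 minus BCAT2 to -3.799. With 1 array left out, the CS-B mean ranged from 0.205 to 0.581 for tubers against stolon and from 0.017 to 0.357 for large against small, and BCAT1 late against early from -0.191 to -0.063, without a call. For tubers against stolon the CS-B mean was 0.081 with the median over spots and 0.671 with spots that had every value. GCVT in tubers against stolon was 0.017 with quantile normalization, and -0.467 to 0.124 with 1 array left out. Large against small it was -0.261 to 0.66, without a call. Except where stated, the cause was not tested. BCAT1 minus BCAT2 could not be computed for large against small tubers, since both had a value on 1 such array. Values within each population or plant set and the clone pairs were added after seeing the data. Tubers minus stolon changes of member spots had SEs of 0.257 to 0.749, which limits what 2 arrays a group can show in vivo.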
